A study of Mus musculus with 24 samples.

Results

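Expression of the genes that make and move bile acids was followed in 4 tissues (liver, brain, heart and skeletal muscle) from WT and *Rap1* KI/KI males. The 10 genes were chosen by name for their place in the pathway: Cyp7a1, Cyp8b1, Cyp7b1, Cyp27a1 and Baat for synthesis and conjugation, Slc10a1, Slco1b2, Abcb11 and Abcb4 for transport, and Nr0b2 for regulation. They are 10 of 21368 genes named on the array, and every probe with one of their accessions was taken, which gave 11 of 55681 probes and 20 of 59305 spots on each array. Slc10a1 has 2 probes and each of the others has 1.

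The study asked what RAP1 does when it cannot be held at telomeres. *Rap1* KI/KI mice carry the I312R substitution, which the labels call RAP1 MUT, in both copies of the gene, on a C57BL6 background backcrossed 4 times. All 24 samples were from male mice. There were 3 WT mice (WT1 to WT3) and 3 *Rap1* KI/KI mice (KI1 to KI3), and each gave all 4 tissues, with 1 array for each mouse and tissue. The labels put WT1 and KI1 at 5 months of age and WT2, WT3, KI2 and KI3 at 2 months, so each genotype had 1 older and 2 younger mice. The substitution is constitutive, so the liver, the other tissues and all cell types within them carry it alike.

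Levels are given as log2 intensities after the 75th percentile of the same array was subtracted, so that 0 is that percentile and 1 unit is a doubling. Levels of different probes cannot be set against each other. Between 58.8% and 66.2% of probes were well above background, as the scanner software scored it, on the liver arrays, and 56.5% to 72.7% on the others. The number of arrays limits the precision. For genotype within a tissue, p-values set the difference between 3 mice and 3 mice against the spread among mice of the same genotype. Comparisons of tissues within a genotype rest on the same 3 mice in every tissue. An exact permutation test of 3 against 3 cannot go below 0.1. All 8 hepatocyte markers on a fixed list, which included Alb, Ttr and Apoa1, were well above background on all 6 liver arrays. In pieces of whole tissue, fewer cells of a type and less RNA per cell cannot be told apart.

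Bile acids are made from cholesterol in hepatocytes and serve to carry cholesterol out of the body and to take up fat from the gut. The classic route starts with Cyp7a1 and the alternative route with Cyp27a1 and Cyp7b1, and Cyp8b1 directs the product towards cholic acid. The acids are conjugated, pumped into bile, recovered in the gut and taken up again by the liver, where they activate the nuclear receptor FXR (Nr1h4), which induces Nr0b2 and lowers synthesis.

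Windows of 250 bases before the transcription start (RefSeq, GRCm38.p6) were at hand for 7 of the 10 genes, with 2 windows for Slc10a1. The 4 printed here hold a motif of nuclear receptors known to act on this pathway and stand for an exporter, an uptake transporter, a synthesis enzyme and a repressor. The capitals mark the motifs. Abcb11 (chr2:69342617-69342866, minus strand) and Slco1b2 (chr6:141629268-141629517, plus strand) hold GGNCANTGACC, an inverted repeat of the type bound by FXR with RXR, which starts 62 and 87 bases before the start. Cyp8b1 (chr9:121916306-121916555, minus strand) holds CAAAGTCCA, of the type bound by HNF4A, 67 bases before the start, overlapping CAAGGNCA, of the type bound by LRH-1 (Nr5a2), 60 bases before it. Nr0b2 (chr4:133553126-133553375, plus strand) holds CAAGGNCA 201 bases before the start. All are written in the direction of the gene.
Abcb11: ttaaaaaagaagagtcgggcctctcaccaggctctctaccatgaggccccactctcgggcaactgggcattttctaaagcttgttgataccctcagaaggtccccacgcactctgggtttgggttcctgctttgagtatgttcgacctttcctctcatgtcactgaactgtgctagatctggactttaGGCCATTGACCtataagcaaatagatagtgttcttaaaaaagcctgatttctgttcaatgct
Slco1b2: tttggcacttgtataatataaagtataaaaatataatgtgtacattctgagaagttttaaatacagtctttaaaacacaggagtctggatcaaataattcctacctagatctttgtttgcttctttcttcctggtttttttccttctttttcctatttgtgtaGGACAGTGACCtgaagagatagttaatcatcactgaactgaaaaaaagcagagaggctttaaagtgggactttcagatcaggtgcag
Cyp8b1: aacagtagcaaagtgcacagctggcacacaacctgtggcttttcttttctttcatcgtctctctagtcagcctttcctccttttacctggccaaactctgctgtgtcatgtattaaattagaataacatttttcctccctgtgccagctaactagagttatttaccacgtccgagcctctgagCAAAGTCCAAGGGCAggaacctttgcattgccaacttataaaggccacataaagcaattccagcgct
Nr0b2: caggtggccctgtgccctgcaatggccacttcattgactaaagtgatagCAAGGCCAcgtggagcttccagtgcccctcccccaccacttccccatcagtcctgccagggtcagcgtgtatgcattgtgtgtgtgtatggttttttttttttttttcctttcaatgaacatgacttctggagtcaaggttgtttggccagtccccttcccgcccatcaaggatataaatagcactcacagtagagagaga
Both strands were searched. Of 32851 windows of this length, 0.198% held GGNCANTGACC, 0.384% held CAAAGTCCA and 5.53% held CAAGGNCA. A match describes the letters and not a site in use, and the motifs were picked with these windows known. The windows of Abcb4, Cyp27a1 and Slc10a1 had none of the 3.

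In both genotypes, the members other than Slc10a1 were highest in the liver by every probe, with Abcb4, Cyp27a1 and Cyp7b1 also measured on every array of the other 3 tissues. Liver was compared with the mean of brain, heart and muscle by limma within each genotype, with Benjamini-Hochberg adjustment over all tested probes, and the brightest probe stood for each gene. Of the 10 genes, 9 were higher in the liver at an adjusted p under 0.05 in WT mice and 9 in *Rap1* KI/KI mice, where 33.6% and 36.3% of all tested probes were called higher and 66.5% and 71.1% were called in either direction. Genes above background in the liver alone entered the test through the liver and had to differ, so the count is a description. The exception was Slc10a1 by its brighter probe. Its other probe was called higher in the liver in both genotypes, and which of them measures the gene was not tested. The fitted median difference over the 10 genes was 9.20 in WT and 8.97 in *Rap1* KI/KI mice on the log2 scale, beside 0.01 and 0.04 over all tested probes. In each genotype 5 of the genes had no array of at least 1 other tissue above background, and with those tissues at their bound (the rule is given for Cyp7a1) the medians were 8.24 and 8.03. With the other Slc10a1 probe, these medians were 8.73 and 9.35.

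**Figure D1:**
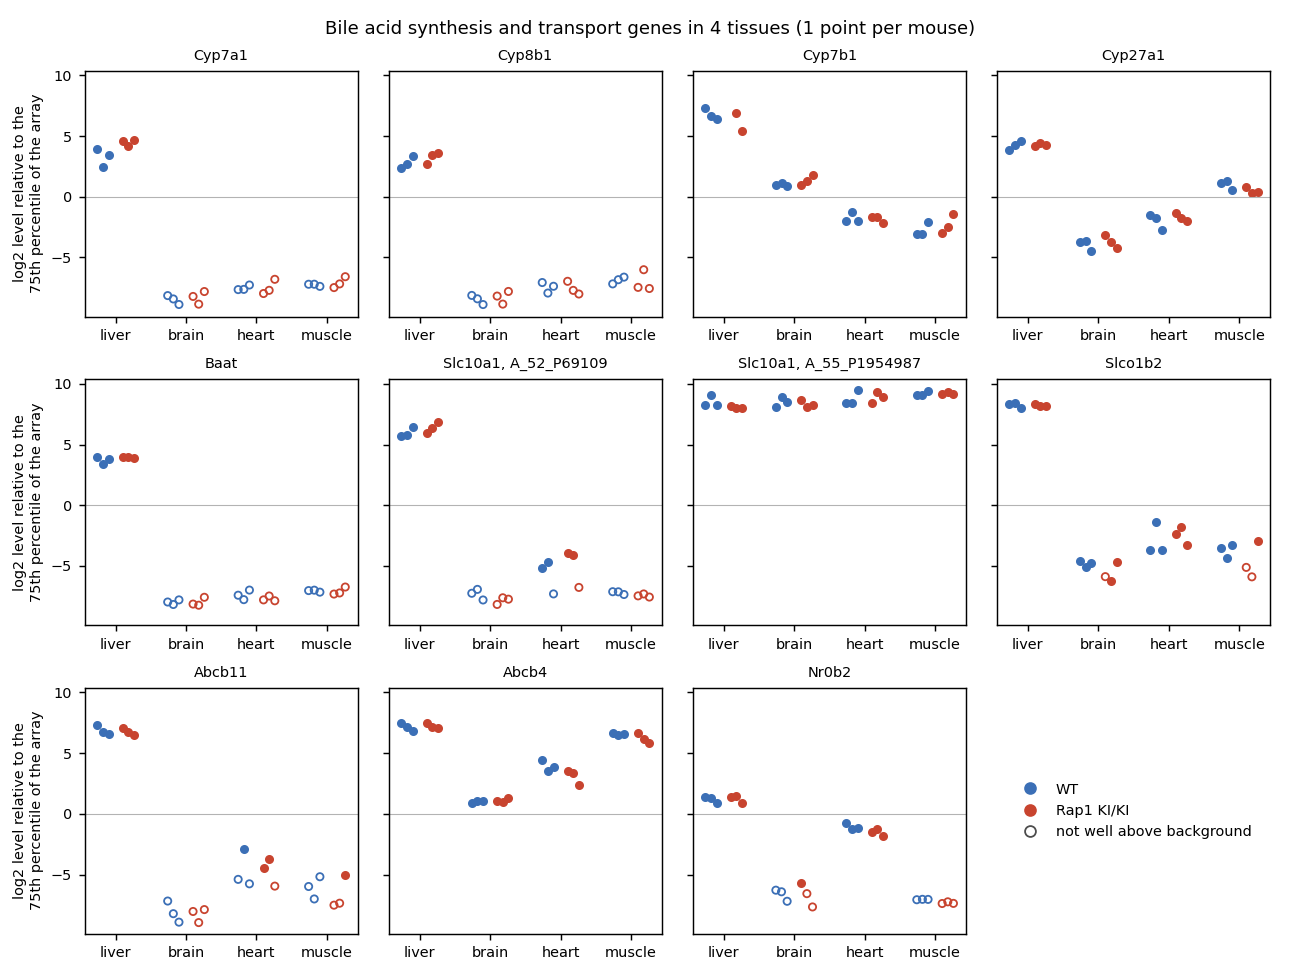
Log2 level of each probe, with 0 at the array's 75th percentile (vertical axis), by tissue (horizontal axis), for 3 WT and 3 *Rap1* KI/KI mice. Each point is 1 mouse, and open symbols are arrays on which the probe was not well above background. Liver points lie above those of the other tissues for every probe except the Slc10a1 probe A_55_P1954987, for which liver and brain overlap and lie below muscle.

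Cyp7a1, which encodes the rate-limiting enzyme of the classic route, was well above background on all 6 liver arrays and on none of the 18 others. Its liver level was 3.96, 2.44 and 3.42 in WT1 to WT3 and 4.58, 4.20 and 4.67 in KI1 to KI3. Elsewhere it read between -8.87 and -6.59, which has no meaning as a level. Liver is therefore given as a bound: the liver mean against the mean, over the arrays of the other tissue, of the higher of the lowest level among probes well above background and the probe's own value. By that rule, Cyp7a1 in the WT liver was at least 800-fold higher than in the brain, at least 451-fold higher than in the heart and at least 336-fold higher than in the muscle. In *Rap1* KI/KI mice the bounds were at least 1578-fold, 1222-fold and 879-fold.

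Cyp8b1, the enzyme that sets the share of cholic acid, and Baat, which joins bile acids to taurine or glycine, behaved alike in that both were below background on all 18 arrays outside the liver. Cyp8b1 read 2.38, 2.73 and 3.38 in the WT livers and 2.70, 3.45 and 3.62 in the *Rap1* KI/KI livers. Baat read 3.95, 3.40 and 3.85 in the WT livers and 3.98, 4.01 and 3.93 in the *Rap1* KI/KI livers. The WT liver was at least 587-fold higher than the brain for Cyp8b1 and at least 1098-fold higher for Baat.

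Cyp27a1, the mitochondrial enzyme that opens the alternative route, and Cyp7b1, which acts on its products, were measured in all 4 tissues. Cyp27a1 fell in the order liver, muscle, heart, brain, and the 6 mice of each tissue lay apart from those of the next. The WT values were 3.87, 4.26 and 4.62 in the liver, 1.15, 1.33 and 0.60 in the muscle, -1.51, -1.76 and -2.73 in the heart, and the brain was lowest with -3.69, -3.65 and -4.46. The *Rap1* KI/KI values were 4.18, 4.39 and 4.29 in the liver and 0.77, 0.29 and 0.37 in the muscle. Liver over muscle was 9.36-fold in WT and 14.0-fold in *Rap1* KI/KI mice, and liver over brain was 291-fold and 253-fold. This probe is printed 10 times on each array. The SD among its spots had a median of 0.05 in the liver and 0.11 in the brain, against an SD between mice of 0.25 and 0.47 (n = 6). Cyp7b1 followed another order, with the brain next to the liver. It read 7.35, 6.68 and 6.42 in the WT livers and 0.97, 1.11 and 0.89 in the WT brains, a 56.7-fold difference. Heart and muscle were lower and overlapped, at -1.96, -1.22 and -1.97 in the WT hearts and -3.08, -3.09 and -2.06 in the WT muscles.

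Abcb4, the canalicular floppase that supplies phosphatidylcholine to bile, had, apart from the brighter Slc10a1 probe, the smallest gap between the liver and another tissue among the members. It read 7.45, 7.14 and 6.82 in the WT livers and 6.67, 6.46 and 6.60 in the WT muscles. In the *Rap1* KI/KI mice it read 7.49, 7.13 and 7.09 in the livers and 6.69, 6.15 and 5.81 in the muscles. The lowest liver lay 0.13 above the highest muscle on the log2 scale. Liver over muscle was 1.47-fold in WT and 2.02-fold in *Rap1* KI/KI mice, liver over heart 9.22-fold and 17.6-fold, and liver over brain 70.1-fold and 69.8-fold. Abcb11, the bile salt export pump, read 7.29, 6.72 and 6.55 in the WT livers and 7.04, 6.74 and 6.49 in the *Rap1* KI/KI livers. It was below background on every brain array, and the WT liver was at least 9528-fold higher than the brain. It rose above background on 3 of 6 heart arrays and on 1 of 6 muscle arrays.

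Slco1b2, which takes up bile acids and other organic anions without sodium, read 8.33, 8.41 and 8.04 in the WT livers and 8.35, 8.18 and 8.14 in the *Rap1* KI/KI livers. Outside the liver it was low but measured on 6 of 6 heart arrays, between -3.72 and -1.35, and the WT liver exceeded the WT heart by 2313-fold. The 2 probes of Slc10a1, the sodium-dependent importer of bile acids, disagreed. Probe A_52_P69109 read 5.69, 5.78 and 6.49 in the WT livers and was not well above background in the brain or the muscle, with the WT liver at least 5233-fold higher than the brain. Probe A_55_P1954987 read 8.25, 9.04 and 8.28 in the WT livers and 9.11, 9.06 and 9.38 in the WT muscles, and ranked muscle, heart, brain, liver, with overlap between neighbours in that order while all livers and brains lay below all muscles. Its liver difference was -0.29 (adjusted p = 0.38, limma) in WT and -0.75 (adjusted p = 0.0054) in *Rap1* KI/KI mice, and the latter passed no longer without KI2 (adjusted p = 0.051) or KI3 (adjusted p = 0.055). The subtracted 75th percentile was an intensity of 471 to 529 on the muscle arrays and 569 to 1107 on the heart arrays. On the brain arrays it was 874 to 1366 and on the liver arrays 573 to 1389. The part of this scaling in the tissue order and difference of A_55_P1954987 was not tested. By A_52_P69109, with brain and muscle at their bounds, the difference was at least 11.72 in WT and 11.84 in *Rap1* KI/KI mice, and all 10 genes were called higher in the liver in both genotypes. That choice of probe was made after its values were seen.

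Nr0b2, which encodes SHP, a repressor of Cyp7a1 and Cyp8b1, was measured in the liver and the heart. It read 1.36, 1.31 and 0.86 in the WT livers, 1.35, 1.50 and 0.88 in the *Rap1* KI/KI livers and -0.76, -1.29 and -1.14 in the WT hearts, a 4.73-fold difference between liver and heart in WT mice. In muscle it was below background on all 6 arrays, and in the brain on 5 of 6.

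The size of the differences depended on how background was treated where a tissue had no measured signal. With normexp background correction and an offset of 50, the fitted liver difference of Cyp7a1 was 6.71 in place of 11.03 in WT mice and 7.99 in place of 12.10 in *Rap1* KI/KI mice. The calls of Cyp7a1 did not change.

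Hepatocyte transcripts were also read outside the liver. In the heart, Alb was highest in the mice in which Abcb11 and Slco1b2 were highest. Alb, the main hepatocyte transcript, read 1.42, 1.76 and -0.05 in the hearts of KI1 to KI3 and -0.01, 2.95 and -0.46 in those of WT1 to WT3. Abcb11 was well above background in the hearts of KI1, KI2 and WT2, the same 3 that were highest for Alb, and read -4.50, -3.73 and -2.92 there. Slco1b2 was also highest in these 3 hearts, at -2.40, -1.80 and -1.35. So was Slc10a1 by A_52_P69109, at -3.96, -4.07 and -4.70, but it was also above background in WT1, at -5.18. Of the 8 hepatocyte markers, the text gives the order over the hearts for Alb alone. Other low members did not all follow this order. Nr0b2 was highest in the heart of WT1, at -0.76. Cyp27a1 read -1.51 there, above KI2 at -1.73 and WT2 at -1.76. Of the 8 hepatocyte markers, 6 to 8 were well above background in each heart and 4 to 6 in each muscle. Their summed level (array 75th percentile = 1), in which the brightest probes weigh most, was 1.86 to 11.8 in the hearts. It was 0.614 to 2.57 in the muscles, against 1876 to 3144 in the livers. In the brains 5 to 8 of the markers were above background and the summed level was 22.3 to 111, with Ttr, which the choroid plexus also makes, at 4.43 to 6.77, while Abcb11 was below background on all 6 brain arrays. WT1 was the brain with the highest Alb, at 0.57 against -6.04 to -3.86 in the others. In the muscles, Abcb11 passed background in KI3 alone, where it read -5.07, and Alb there read 0.18, below only WT3 at 0.49. The part of such transcripts in the values of Abcb11, Slco1b2 and Slc10a1 (A_52_P69109) outside the liver was not tested.

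**Figure D2:**
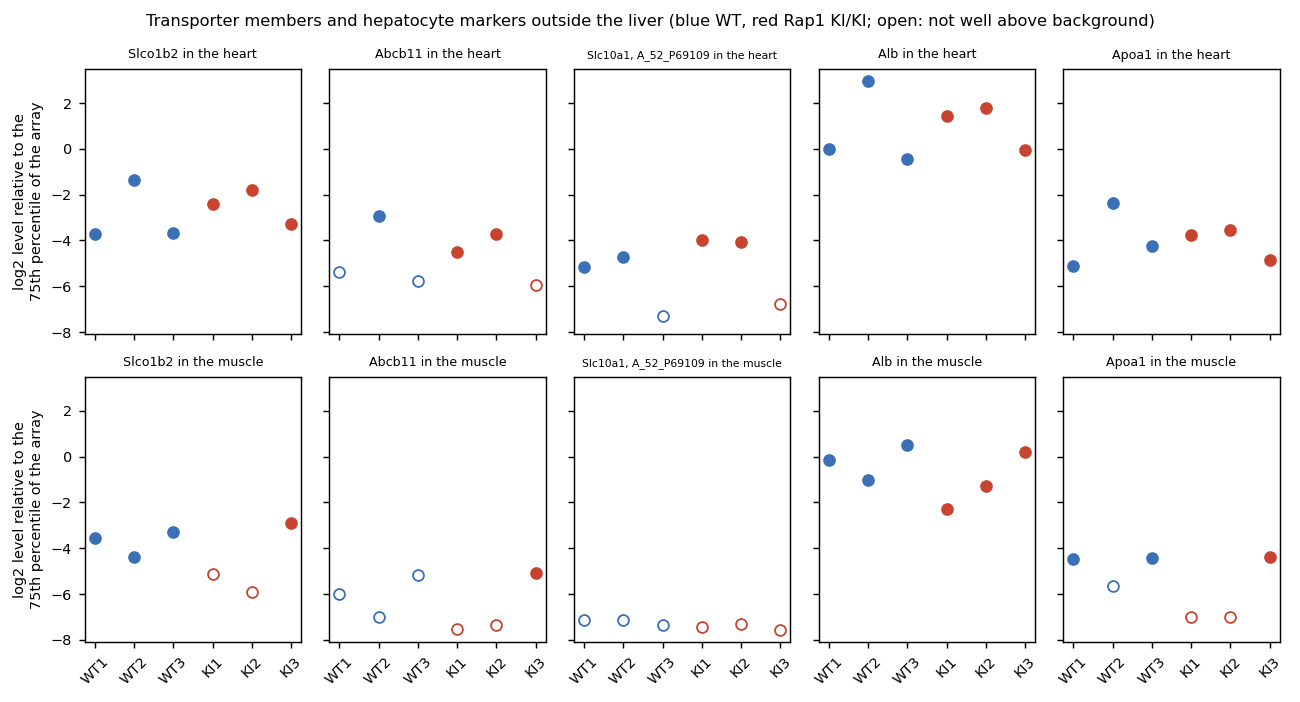
Log2 levels with 0 at the array's 75th percentile (vertical axis) of Slco1b2, Abcb11 and Slc10a1 (probe A_52_P69109) and of the hepatocyte markers Alb and Apoa1, in the hearts (upper row) and muscles (lower row) of each mouse (horizontal axis; blue WT, red *Rap1* KI/KI, open circles not well above background). The hearts of WT2, KI1 and KI2, in which Abcb11 is a filled circle, are also the highest for Alb.

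The genotypes were then compared within each tissue. In the liver, 0 of the 10 genes passed an adjusted p of 0.05, and 0% of the 35239 tested probes did. Cyp7a1 was the only member with an unadjusted p under 0.05, where 2.13% of all probes were. All 3 *Rap1* KI/KI livers were above all 3 WT livers for Cyp7a1, which held for 2.77% of all probes, and all 3 were below for Slc10a1 by A_55_P1954987, which held for 3.07%. By the other Slc10a1 probe, A_52_P69109, the genotypes overlapped. Among the livers, the subtracted 75th percentile was lowest in WT2, at 573, and highest in KI3, at 1389. The part of this scaling in the separation by A_55_P1954987 was not tested. The median difference over the 10 genes was 0.05, beside -0.01 over all probes.

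Cyp7a1 averaged 4.48 ± 0.25 (SD, n = 3) in the *Rap1* KI/KI livers and 3.28 ± 0.77 (SD, n = 3) in the WT livers. The difference of 1.21 (SE 0.39, 95% confidence interval 0.29 to 2.13) was 2.31-fold, with p = 0.017 and adjusted p = 1.00 by limma and p = 0.1 by the exact permutation test, the smallest possible. The lowest *Rap1* KI/KI liver, KI2 at 4.20, lay close to the highest WT liver, WT1 at 3.96. WT2, at 2.44, carried much of the distance. Its array had the lowest 75th percentile of the liver arrays, 573 against 952 to 1389, and the part of this was not tested. Without WT2 the difference was 0.79. Without each of the other mice in turn it was between 1.11 and 1.55 and, by limma, its unadjusted p rose above 0.05 only without KI3. Cyp8b1 differed by 0.43 (95% confidence interval -0.39 to 1.25) and its groups overlapped.

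**Figure D3:**
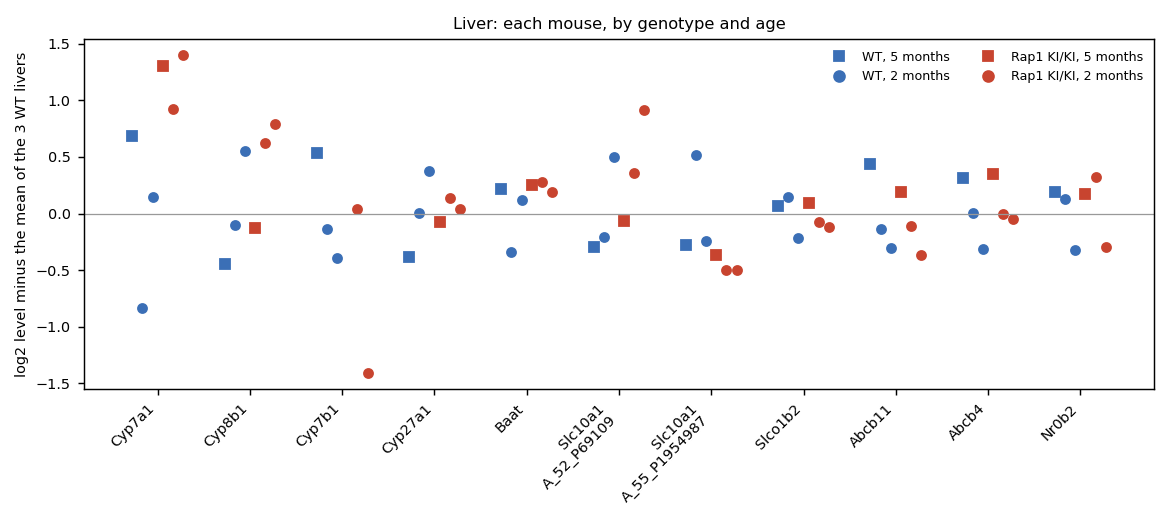
Liver level of each probe in each mouse minus the mean of the 3 WT livers on the log2 scale (vertical axis), by probe (horizontal axis), with squares for 5-month and circles for 2-month mice, blue for WT and red for *Rap1* KI/KI. For Cyp7a1 all red points lie above all blue ones, and for Slc10a1 probe A_55_P1954987 all lie below.

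Among the other synthesis genes, Cyp7b1 read 6.86 and 5.41 in KI2 and KI3, and its single spot on the KI1 array had an outlier flag and was left out. The difference was -0.68 (95% confidence interval -1.89 to 0.53), and with the flagged spot it was -0.49. Cyp27a1 differed by 0.03 (-0.53 to 0.60) and Baat by 0.24 (-0.27 to 0.75). For the transporters, the difference was -0.03 (-0.50 to 0.43) for Slco1b2, -0.10 (-0.73 to 0.54) for Abcb11 and 0.10 (-0.46 to 0.66) for Abcb4. Slc10a1 differed by 0.40 (-0.38 to 1.18) with A_52_P69109 and by -0.45 (-1.07 to 0.16) with A_55_P1954987, so its probes opposed each other in sign. With the first it read 5.92, 6.34 and 6.90 in KI1 to KI3 and with the second 8.16, 8.03 and 8.03, below the 8.25, 9.04 and 8.28 of WT1 to WT3. Nr0b2 differed by 0.07 (-0.53 to 0.66). Apart from Cyp7a1 and Cyp7b1, the interval bound farthest from 0 was 1.25, for Cyp8b1.

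**Figure D4:**
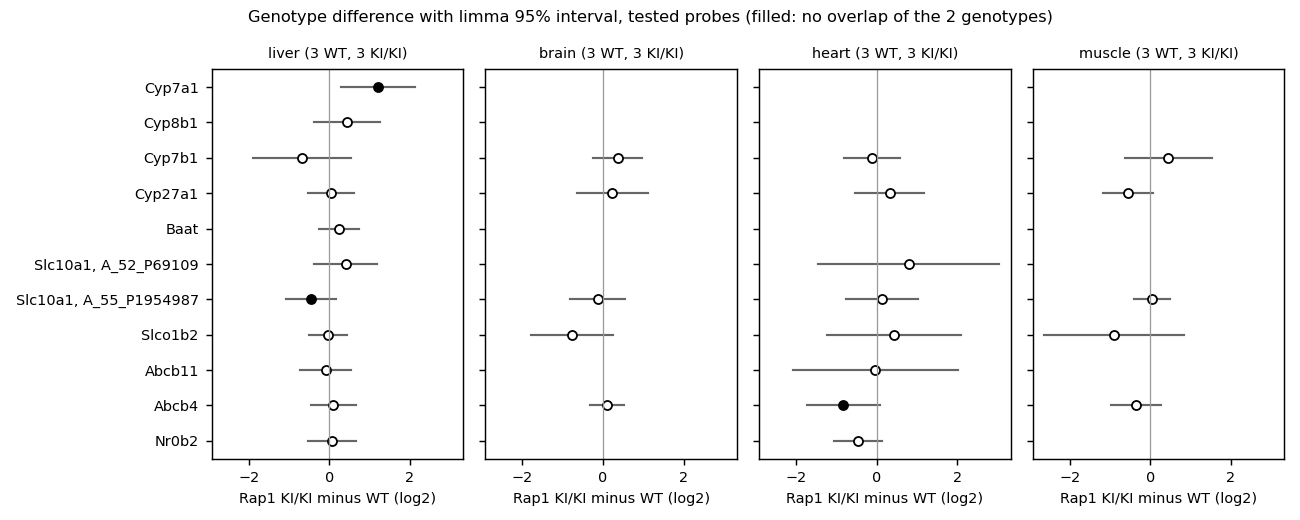
Log2 level in *Rap1* KI/KI minus WT mice (horizontal axis) for each tested probe (vertical axis) in 4 tissues, with bars for the 95% confidence interval from limma and filled points where the 3 mice of one genotype lie apart from the 3 of the other. All intervals include 0 except that of Cyp7a1 in the liver, which runs from 0.29 to 2.13.

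In the brain, 0 of 5 tested genes passed the adjusted threshold (0% of all probes) and 0 had a p under 0.05 (2.62% of all probes), with a median difference of 0.10 beside -0.05 over all probes. Cyp7b1 read 0.99, 1.28 and 1.81 in *Rap1* KI/KI brains and 0.97, 1.11 and 0.89 in WT brains, a difference of 0.37 (95% confidence interval -0.24 to 0.97). The largest brain difference among tested members was that of Slco1b2, -0.78 (-1.80 to 0.24), with KI1 not above background. In the heart, 0 of 7 tested genes passed (0% of all probes) and 0 had a p under 0.05 (7.51% of all probes), with a median of -0.04 beside -0.02. Abcb4 was lower in all 3 *Rap1* KI/KI hearts, at 3.52, 3.40 and 2.38, than in all 3 WT hearts, at 4.40, 3.53 and 3.86, a separation that 8.69% of all heart probes showed. The difference was -0.83 (95% confidence interval -1.74 to 0.07, limma adjusted p = 0.65). KI1 and WT2 were only 0.01 apart. Nr0b2 read -1.49, -1.26 and -1.83 in *Rap1* KI/KI hearts, and its difference was -0.46 (-1.06 to 0.13) with overlapping groups. In the muscle, 0 of 5 tested genes passed (0% of all probes) and 0 had a p under 0.05 (2.48% of all probes), with a median of -0.36 beside -0.07. Cyp27a1 differed by -0.55 (95% confidence interval -1.17 to 0.07, limma adjusted p = 0.94), and Abcb4 by -0.36 (-0.97 to 0.26). Slco1b2 differed most, by -0.90 (-2.64 to 0.84), with KI1 and KI2 not above background. The 6 tested hepatocyte markers all had lower means in *Rap1* KI/KI muscles, with a median of -1.09 and 0 at p under 0.05. Their part in the Slco1b2 value was not tested.

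Whether the genotype difference in the liver departed from that in the other tissues was tested as an interaction over all 24 arrays. Of 42463 probes, 0 (0%) passed an adjusted p of 0.05, and of the 10 genes 0 did. Cyp7a1 gave 1.08 (SE 0.43, limma adjusted p = 1.00), with an unadjusted p under 0.05, as 2.78% of probes had. Outside the liver no array held a measured level of Cyp7a1. For Abcb4, the liver difference minus the heart difference was 0.93 (limma adjusted p = 0.94).

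Cyp7a1, Cyp8b1 and Nr0b2 were set against each other over the 6 livers, in 3 pairs with exact permutation tests over all pairings. Cyp7a1 and Cyp8b1 gave r = 0.28 (p = 0.60, adjusted p = 0.89) and rho = 0.37 (p = 0.50, adjusted p = 0.80), and r = 0.51 without WT2 and WT3. Cyp7a1 and Nr0b2 gave r = -0.03 (p = 0.96, adjusted p = 0.96) and rho = 0.14 (p = 0.80, adjusted p = 0.80), and r = -0.66 without the same mice. Cyp8b1 and Nr0b2 gave r = -0.54 (p = 0.33, adjusted p = 0.89) and rho = -0.31 (p = 0.56, adjusted p = 0.80), and r = -0.25 without KI3 and WT1. Of the 3 pairs, 0 had a p under 0.05 by either measure.

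The remaining genes of the pathway were taken from fixed lists. None of the 12 other synthesis genes had a p under 0.05 for genotype in the liver, where 2.13% of all probes did, with a median of -0.07 (Ch25h 0.31, Scp2 -0.22, Slc27a5 -0.17, Hsd17b4 0.14). Among 12 tested of 13 other transporters 0 did, with a median of -0.11 (Abcc2 -0.24, Slc10a2 -0.62, Slc51b 0.41, Slco1a4 -0.47). Among 13 tested of 14 other regulators 0 did, with a median of -0.11. The values with the smallest p were -0.68 for Nr5a2, which activates Cyp7a1 and Cyp8b1, -0.58 for Nr1i2, the xenobiotic receptor PXR, -0.37 for Mafg and -0.25 for Hnf4a, each with a limma adjusted p of 1.00. Across tissues, 11 of the 12 synthesis genes and 11 of the 13 transporters were higher in the liver in both genotypes, with Ch25h, Abcc4 and Slc51a lower, and 12 of 13 tested regulators were higher, beside 33.6% of all probes in WT and 36.3% in *Rap1* KI/KI mice.

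Cyp7a1 also varies with time of day and inflammation, and the labels give no hour of collection. Of 14 clock genes, 13 were tested in the liver and 0 had a p under 0.05, where 2.13% of all probes did. Their median was -0.10, with a range from -0.86, for Per3, to 0.14. The 7 acute phase genes had a median of 0.28, and 6 of 7 means were higher in *Rap1* KI/KI livers. All 3 *Rap1* KI/KI livers were above all WT livers for Crp (0.28), which held for 2.77% of all probes. Among them 1 had a p under 0.05, as 2.13% of all probes had. It was Lcn2, with a difference of 2.37 (limma adjusted p = 1.00). Lcn2 read 2.38, 3.72 and 6.35 in KI1 to KI3 and 2.41, 1.37 and 1.57 in WT1 to WT3, so the groups overlapped and KI3 stood highest. The 8 hepatocyte markers had a median of -0.17, with 1 of 8 means higher in *Rap1* KI/KI livers and 0 at p under 0.05. Their summed level, in which the brightest probes weigh most, was 1876 to 2399 in *Rap1* KI/KI and 2284 to 3144 in WT livers. The 5 tested cholangiocyte markers had a median of -0.16, with 0 at p under 0.05. Cyp7a1 is known from hepatocytes around the central vein. The 8 pericentral markers had a median of -0.03, with 4 higher and 1 at p under 0.05, beside 2.13% of all probes. That was Rhbg, at 2.75, 3.35 and 3.33 in KI1 to KI3 and 2.62, 2.62 and 2.47 in WT1 to WT3 (difference 0.57, limma adjusted p = 1.00). The 8 periportal markers had a median of -0.27, with all 8 means lower in *Rap1* KI/KI livers and 0 at p under 0.05. The median over all probes was -0.01. Most means of the hepatocyte list were lower too, while 4 of the 8 pericentral means were higher. The 6 Kupffer cell and macrophage markers had a median of 0.19, with all 6 means higher and 0 at p under 0.05. The part of these in the Cyp7a1 difference was not tested.

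The age of the mice was compared in the liver with genotype in the fit, a comparison chosen after the data were seen. Of 9 member genes measured on all 6 livers (Cyp7b1 lacked KI1), 4 (44.4%) had both 5-month livers on one side of all 2-month livers, or 4 of 10 probes (40%), beside 34.5% of all probes (24.1% higher and 10.4% lower), and 1 of 35239 probes (0.00284%) passed the adjusted threshold. Abcb11 (0.54) and Abcb4 (0.42) were higher and Cyp8b1 (-0.75) and Cyp27a1 (-0.37) lower at 5 months, with the smallest adjusted p over the members at 0.24. The 5-month livers also had more probes above background, 65.3% and 66.2% against 58.8% to 63.7%, and their part in these differences was not tested. Akr1d1, the reductase that follows the early hydroxylations in synthesis and is no member, stood apart. It read -3.04 in WT1 and -1.69 in KI1, against 2.35, 2.65, 1.67 and 1.34 in WT2, WT3, KI2 and KI3. The difference was -4.37 (SE 0.51, limma adjusted p = 0.15), and 8 probes of all tested had a gap between ages of at least 3.03, of which 2 were lower at 5 months. It was picked after its values were seen, and 2 mice against 4 cannot go below p = 0.067 in an exact permutation test.

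The genes with a pattern most like the members were sought over all 24 arrays, by Pearson's r with the mean of the centred levels of 9 members, by the brightest probe of each. Cyp7b1, without a KI1 liver value, was not among them. Asgr2, Adh4, Esrp2, C8g and Cyp2d26 led, with r between 0.995 and 0.996. Of 21301 genes, 749 had r over 0.95, so many genes shared this profile.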

How the data were processed

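RNA of 4 tissues from male mice, 3 WT and 3 *Rap1* KI/KI, was labeled with Cy3 and hybridized to 24 1-color Agilent arrays. The study used one extraction kit for liver and brain and another for heart and muscle. The authors deposited intensity values that Feature Extraction 12.0.3.1 had background-subtracted and detrended, without scaling arrays to each other. They also deposited a score per spot, the z-score of its log10 signal within the array, which was recomputed to within 0.005. For the array procedures and analyses their text refers to an earlier publication, and it gives no normalization or test itself.

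Each spot was taken as log2 intensity minus the log2 of the array's 75th percentile, which ranged from 470.7 to 1389. Controls and outlier-flagged spots were dropped, and repeated spots were averaged. Names came from accessions through RefSeq (GRCm38.p6), with 28331 probes named. The array design refers to build mm9, and coordinates printed here are those of the RefSeq table. Within a tissue, limma 3.58.1 (R 4.3.3, two-sided) compared genotypes on probes scored well above background on 3 or more of 6 arrays. Tissues were compared on probes well above background on all 3 arrays of a tissue. Adjusted p-values are Benjamini-Hochberg over all tested probes. Correlations used exact permutations in scipy 1.17.1. The procedures were tested on simulated data.

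The members and gene lists were chosen with earlier results of these data known. Named genes are all members, at most 4 genes of each other list by the smallest p for genotype in the liver, and the 5 genes most alike. Akr1d1, Alb, Ttr, Apoa1, Abcc4 and Slc51a were named outside that rule. The same mouse gave all 4 tissues, so replicate numbers pair samples across tissues. Deviations of 36 same-mouse pairs correlated at -0.22 to 0.26 (median 0.05, 9 above 0.1), with a consensus of 0.026. Alternatives were quantile and normexp normalization, the authors' z-scores, other filters, flagged spots kept, trend and robust moderation, probe means, each mouse left out, and age, slide or mouse as a block. Groups of 3 were not tested for outliers.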

Additional observations from a re-analysis of the deposited data

How the results depend on the processing

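Of 1010 single values recomputed under the alternatives, 959 kept their direction and side of the threshold, 47 changed sign, 2 lost a call and 2 gained one. Of 120 counts and correlations, 118 kept their call or, for counts, stayed within 1.5 times the value given. The correlations kept the sign of r and passed no test but moved in size: r of Cyp7a1 and Nr0b2 was -0.24 under quantile normalization, -0.17 in z-scores and -0.0012 under normexp, and its rho turned to -0.31 and -0.20 under the first and second, while rho of Cyp7a1 and Cyp8b1 was 0.60 under normexp. The r without 2 livers changed sign for Cyp7a1 with Nr0b2 (0.75 under quantile normalization, 0.68 in z-scores) and with Cyp8b1 (-0.097 and -0.21). The exceptions among counts came from testing only probes above background on all arrays, which left 5 members tested in WT and 3 in *Rap1* KI/KI mice, of which 4 and 3 were called. With each mouse left out, 0 members were called for genotype in any tissue or for the interaction, 9 to 9 in the WT tissue contrast and 9 to 10 in the *Rap1* KI/KI contrast. Without WT1, 69 probes outside the members passed the interaction test in place of 0, and 1 did without WT3 and 1 under quantile normalization. With the mouse as a replicate block, the counts of members called were 0 for genotype and interaction, 9 in WT and 10 in *Rap1* KI/KI mice, and no call changed.

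Signs turned for liver genotype differences near 0: Slco1b2 was 0.20 under quantile normalization and 0.029 under normexp, Abcb11 was 0.010 under quantile normalization, and Cyp27a1 was -0.0063 in z-score units. Slc10a1 by A_55_P1954987 was 0.025 in the brain under quantile normalization and -0.15 in the muscle under normexp. The Cyp27a1 interaction was -0.0099 in z-score units. With the mean of both Slc10a1 probes the tissue difference was 6.22 in WT and 6.19 in *Rap1* KI/KI mice, and under quantile normalization A_55_P1954987 was called in WT at -0.56 (limma adjusted p = 0.032). For age, Baat was -0.037 under quantile normalization and -0.0050 in z-score units, Slco1b2 was -0.0375 in z-score units, and Akr1d1 was -3.76 under normexp, where it passed (adjusted p = 0.00039).

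Leaving out a mouse turned signs in these ranges. In the liver they were -0.060 to 0.25 for Abcb4, -0.15 to 0.22 for Cyp27a1, -0.093 to 0.25 for Nr0b2, -0.14 to 0.040 for Slco1b2, -1.41 to 0.043 for Cyp7b1 and -0.25 to 0.12 for Abcb11. In the brain they were -0.051 to 0.51 for Cyp27a1 and -0.34 to 0.077 for Slc10a1. In the heart they were -0.076 to 0.48 for Slc10a1, -0.25 to 0.13 for Cyp7b1, -0.57 to 0.85 for Abcb11 and -0.049 to 0.56 for Cyp27a1. In the muscle the range was -0.031 to 0.13 for Slc10a1. For the interaction they were -0.031 to 0.44 for Abcb11, -0.30 to 0.50 for Cyp27a1 and -0.17 to 1.01 for Slc10a1 by A_52_P69109, and for age -0.41 to 0.13 for Slc10a1 by A_55_P1954987. The cause was not tested. A single slide held all liver arrays, so slide could not act within the liver comparison of genotypes, and in the brain slide and age cannot be told apart. No heart or muscle array was on that slide. Between the liver and these tissues, slide and extraction kit therefore cannot be told apart from tissue. Signal over background limits the members below it outside the liver to bounds.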
